A study of Saccharomyces pastorianus Weihenstephan 34/70 with 7 samples.

Results

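Autophagy genes of the lager brewer's yeast Weihenstephan 34/70 were examined at the end of high gravity wort fermentations. They were taken as every probe set of the Affymetrix Yeast Genome 2.0 array whose annotated symbol is ATG followed by digits only, which gave 34 genes, each with 1 probe set, of 5635 Saccharomyces cerevisiae genes tested. Of the 34, 18 belong to the core machinery that builds the autophagosome, 12 are factors of selective autophagy and 4 belong to neither set. ATG6 and ATG24 carry the symbols VPS30 and SNX4 in the annotation, so the rule did not take them, and they are described with the partner genes.

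The study asked how the syrup used to raise the wort gravity and the addition of Flavourzyme, a fungal peptidase mixture that releases amino acids from wort protein, act on the metabolism of this yeast. All fermentations ran in 21 °Plato wort (a measure of dissolved extract) and were sampled in the stationary phase. The 7 arrays came from maltose syrup wort with 60 ppm Flavourzyme (n = 1), maltose syrup wort without it (maltose control, n = 2), glucose syrup wort with 60 ppm Flavourzyme (n = 2) and glucose syrup wort without it (glucose control, n = 2). The exact sampling time differed between worts and with Flavourzyme, so each effect and the sampling time cannot be told apart. The strain is a hybrid of S. cerevisiae and Saccharomyces eubayanus, whereas the probes were designed for S. cerevisiae, so a signal cannot be assigned to the gene copy of either parent. The study ran duplicate experiments for each condition and also took samples in duplicate, but the sources did not tell which of these the duplicate arrays were. The p-values therefore measure only the spread between these samples, which may be technical.

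In autophagy a cell encloses cytoplasm or organelles in a double membrane, the autophagosome, and delivers them to the vacuole, where they are broken down and their amino acids returned to the cytosol. In yeast the process is induced when nitrogen or carbon runs short and is held back by the TORC1 kinase while amino acids are plentiful. Selective forms use receptors that tie a cargo, such as a mitochondrion, a peroxisome or a part of the endoplasmic reticulum, to the forming membrane, and the cytoplasm-to-vacuole targeting (Cvt) pathway uses much of the same machinery in growing cells to carry enzymes to the vacuole.

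Signals are given as log2 values after robust multi-array averaging (RMA), so that a difference of 1 is a doubling. They are compared between arrays for 1 gene and not between genes, since probe sets differ in response. Probe sets for Schizosaccharomyces pombe on the same array served as background, and 95% of them had means up to 4.95, a level that 33 of the 34 autophagy genes exceeded. The exception was ATG13, the regulatory subunit of the Atg1 kinase, with values between 3.53 and 4.07 on the 7 arrays. The ATG16 probe set was below that background level on both glucose Flavourzyme arrays (3.42 and 4.91), and that of ATG23 on glucose control 2 (4.25). The 17 S. pombe probe sets named for autophagy genes had means between 2.50 and 4.63, all below the same limit.

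The duplicates differed in quality between groups. The 2 arrays of a group lay a median of 0.11 apart over the 34 genes in the maltose controls, 0.18 apart in the glucose Flavourzyme fermentations and 0.58 apart in the glucose controls. No autophagy gene was more than 1 apart in the maltose controls (0.0887% of all genes), 1 was in glucose wort with Flavourzyme (1.61%) and 8 were in the glucose controls (21.5%). Glucose control 1 was above glucose control 2 for 25 of the 34 genes, against 57.8% of all genes, and it had the highest signal of the 7 arrays for 13 of them and the lowest for none. Over all genes, 13.2% had their highest and 11% their lowest signal on that array. Probe sets for ribosomal RNA averaged 8.56 to 9.36 on the maltose arrays and 11.1 to 13.2 on the glucose arrays. Stationary phase markers such as HSP12 and HSP26 had a median of 12.5 to 13.5 on each of the arrays, with no marker below 9.26.

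**Figure D1:**
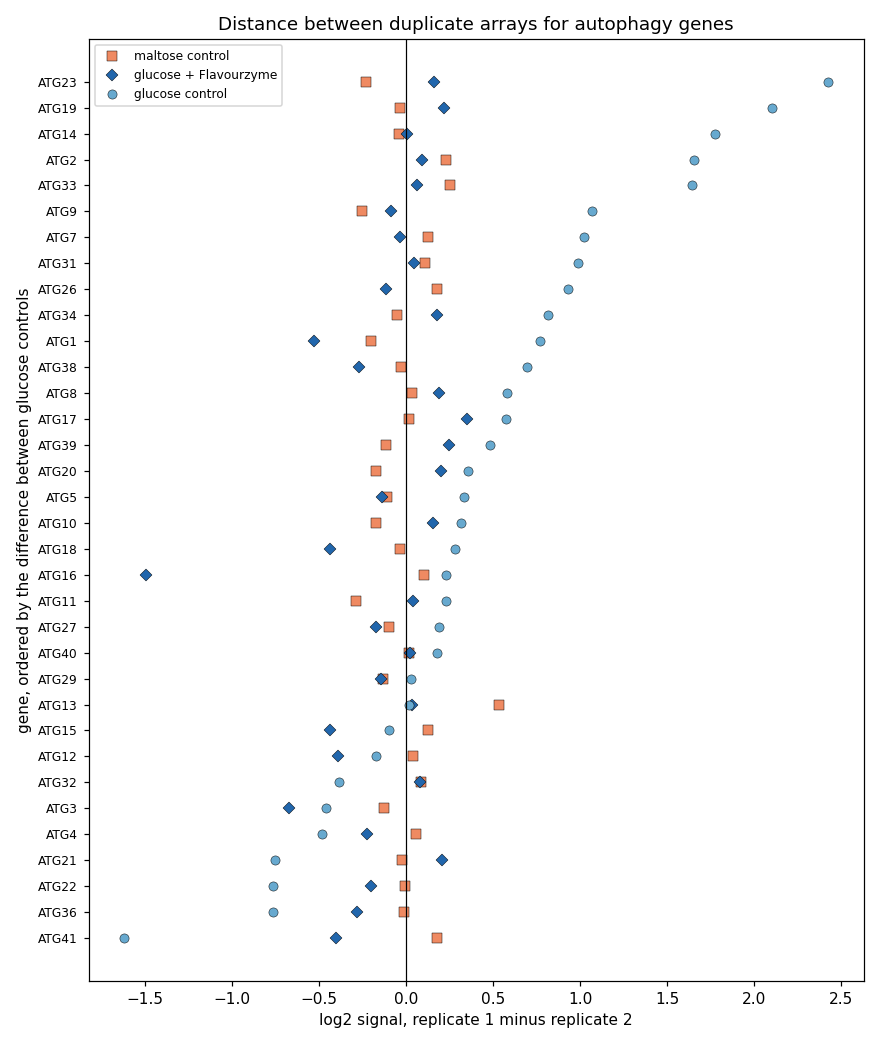
Log2 signal of replicate 1 minus replicate 2 (horizontal axis) for each of the 34 autophagy genes (vertical axis, ordered by the glucose controls) in maltose control, glucose Flavourzyme and glucose control fermentations; the single maltose Flavourzyme array has no duplicate. The glucose controls spread between -1.62 (ATG41) and 2.43 (ATG23), whereas the maltose controls stay within 0.54 of each other.

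For the genes furthest apart, the glucose controls lay on either side of the other glucose arrays. ATG23, which helps Atg9 vesicles to leave their peripheral pool, had 6.68 and 4.25 on the glucose controls, and ATG19, the receptor of the Cvt pathway, had 10.57 and 8.46. ATG14, the subunit that directs the phosphatidylinositol 3-kinase to autophagy, had 9.64 and 7.86. ATG2, a lipid transfer protein, had 8.70 and 7.04, and ATG33, a mitochondrial outer membrane protein needed for mitophagy, had 11.21 and 9.57. In each of these 5 genes both glucose Flavourzyme arrays fell between the glucose controls, so the direction of any difference from the control depended on which control was used. The genes were picked for a wide gap between the controls, which makes this likely. ATG9 and ATG41, also more than 1 apart, went the same way. For ATG7 both glucose Flavourzyme arrays (8.06 and 8.09) were below both glucose controls (9.16 and 8.14).

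The comparison of the worts, averaged over Flavourzyme, asks whether maltose in place of glucose went with another level of these genes. ATG40 and ATG10 were higher in maltose wort and ATG5, ATG36 and ATG3 were lower, 5 of 34 genes at an adjusted p under 0.05 by limma with Benjamini-Hochberg adjustment over all 5635 genes. The unmoderated 2-factor model of the study's methods called ATG40 and ATG10 alone, with an adjusted p of 0.0671 for ATG5, 0.121 for ATG36 and 0.142 for ATG3. The study also asked for an absolute log2 fold change above 1.30, which none of the 5 genes reached. Among all genes tested, 23% were called higher in maltose wort and 11.3% lower, against 5.88% (2 genes) and 8.82% (3 genes) of the autophagy genes. The called core genes were ATG10, ATG5 and ATG3 (3 of 18), and the called selective factors were ATG40 and ATG36 (2 of 12). The median wort difference was 0.13 over the 34 genes, 0.27 over the core machinery, 0.34 over the selective factors and 0.26 over all genes. Relative to all genes the median of the 34 stood at -0.13, but those of the core machinery and the selective factors were not below it. Of the 34 genes, 16 lay above the median of all genes. When arrays were scaled over S. cerevisiae genes alone, by quantiles or by their median, the median over the 34 genes became -0.05 or -0.03, while the difference from all genes was -0.11 or -0.13, and 2 genes were called higher and 5 lower by either scaling. That difference was -0.28 with dim genes left out, -0.22 without glucose control 2 and -0.29 without the maltose Flavourzyme array, where only the controls were compared. Under the same 2 scalings the calls over all genes were 975 higher and 891 lower by quantiles and 921 higher and 834 lower by the median, against 1296 higher and 635 lower with the deposited values. In bulk RNA, fewer cells with a transcript and less of it in each cell cannot be told apart. The ribosomal RNA signal also differed between the worts, and its part in these differences was not tested.

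**Figure D2:**
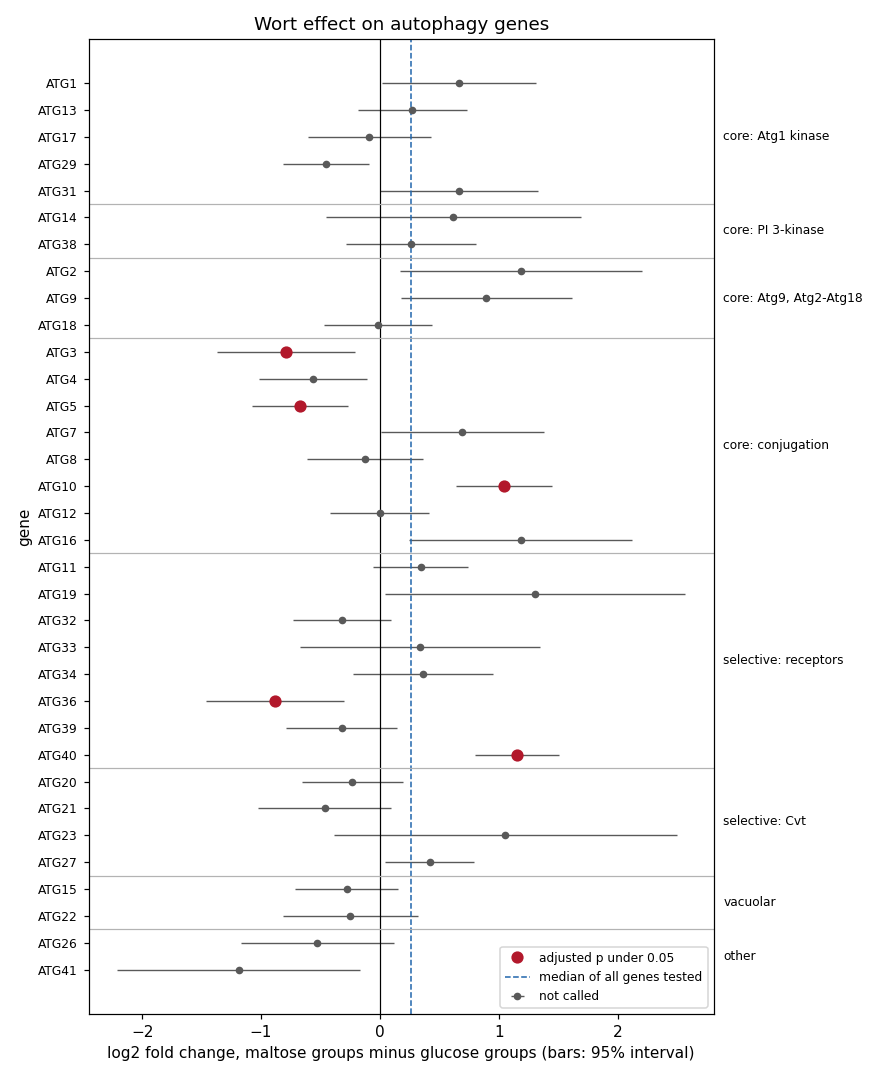
Log2 fold change of maltose minus glucose wort, averaged over Flavourzyme (horizontal axis, points, with 95% intervals as bars), for the 34 autophagy genes grouped by role (vertical axis); red points have an adjusted p under 0.05 and the dashed line is the median of all genes tested, 0.26. The 5 called genes lie on both sides of 0, from -0.89 (ATG36) to 1.15 (ATG40), and 3 of them belong to the conjugation group.

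The number of calls depended on single arrays. Calls fell without either maltose control or either glucose Flavourzyme array, among the autophagy genes and among all genes. The number was 4 without the maltose Flavourzyme array, where only the controls were compared and 28.6% of all genes were called. It was 25 without glucose control 1 and 17 without glucose control 2, or 73.5% and 50% of the autophagy genes, when 71.5% and 60.1% of all genes were called, against 34.3% with all arrays. The wort differences of the 5 genes kept their direction in all of these fits. The genes passed the threshold in both fits without a glucose control. None of them passed it without either maltose control or either glucose Flavourzyme array.

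A count that uses no model also held genes of both directions. For 8 of the 34 genes all 3 maltose arrays were above all 4 glucose arrays (26.9% of all genes, 23.5% of the autophagy genes), and for 6 all were below (14.2% of all genes, 17.6% of the autophagy genes). The 8 were ATG2, ATG9, ATG10 and ATG16 of the core machinery and ATG11, ATG19, ATG27 and ATG40 of the selective factors. The 6 were ATG3, ATG4, ATG5 and ATG29 of the core machinery, ATG36 of the selective factors and ATG26. In the other 20 genes the worts overlapped.

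**Figure D3:**
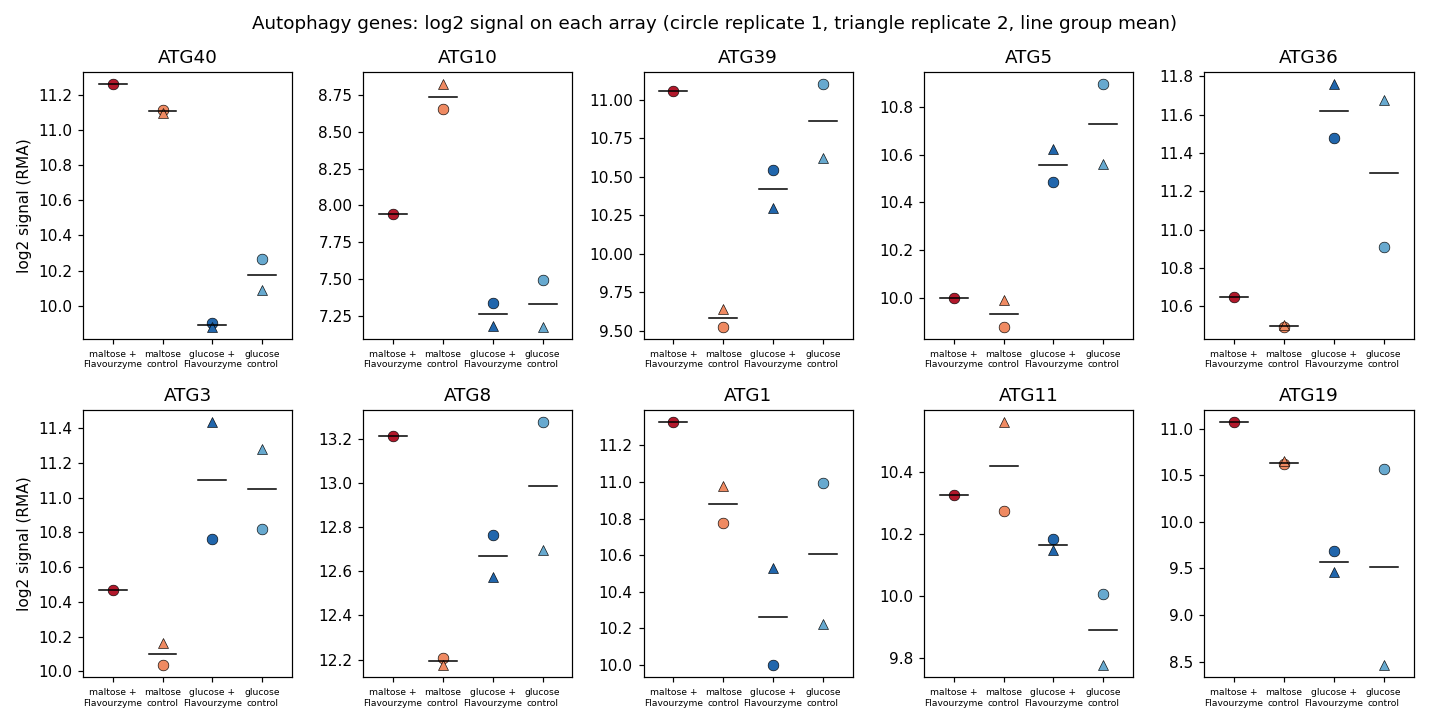
Log2 signal (vertical axes) on each array for the 6 autophagy genes called in any comparison and for ATG8, ATG1, ATG11 and ATG19, with the 4 groups along the horizontal axis, circles for replicate 1, triangles for replicate 2 and a line at the group mean. All maltose arrays of ATG40 and ATG10 lie above all glucose arrays, all those of ATG5, ATG36 and ATG3 lie below, and ATG39 is low in the 2 maltose controls alone.

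All 3 called genes of the core machinery belong to the ubiquitin-like conjugation systems, which attach Atg12 to Atg5 and Atg8 to a membrane lipid. ATG10, the E2-like enzyme that joins Atg12 to Atg5, had a log2 signal of 7.94 on the maltose Flavourzyme array and 8.65 and 8.82 on the maltose controls, against 7.34 and 7.19 in glucose wort with Flavourzyme and 7.49 and 7.18 on the glucose controls. The 3 maltose arrays were thus all above the 4 glucose arrays, with the maltose controls highest. The wort difference was 1.04 (SE 0.16, adjusted p = 0.0124, limma).

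ATG5, the acceptor of Atg12, ran the other way. It had 10.00 in maltose wort with Flavourzyme and 9.88 and 9.99 on the maltose controls, against 10.49 and 10.62 in glucose wort with Flavourzyme and 10.89 and 10.56 on the glucose controls. Its maltose arrays lay close together, below every glucose array, and the wort difference was -0.67 (SE 0.16, adjusted p = 0.0284).

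ATG3, the E2-like enzyme that passes Atg8 to phosphatidylethanolamine, had 10.47 in maltose wort with Flavourzyme and 10.03 and 10.16 on the maltose controls, against 10.76 and 11.43 in glucose wort with Flavourzyme and 10.82 and 11.28 on the glucose controls. The worts did not overlap, but replicate 2 exceeded replicate 1 in both glucose groups, and the difference of -0.79 (SE 0.24) was just past the threshold (adjusted p = 0.0485).

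ATG8 itself, the ubiquitin-like protein that coats the growing membrane and is the usual marker of autophagosomes, had 13.21 in maltose wort with Flavourzyme and 12.21 and 12.17 on the maltose controls, against 12.76 and 12.57 in glucose wort with Flavourzyme and 13.27 and 12.69 on the glucose controls. Both maltose controls were the lowest of the 7 arrays, while the maltose Flavourzyme array was close to glucose control 1, the highest. Averaged over Flavourzyme its wort difference was -0.12 (SE 0.20, adjusted p = 0.637).

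The other 4 conjugation genes did not pass the test for wort. ATG16, which binds the Atg12-Atg5 conjugate, had a difference of 1.18 (SE 0.38, adjusted p = 0.0573), although its probe set was at background level in glucose wort with Flavourzyme. ATG4, the protease that processes Atg8, had -0.56 (SE 0.19, adjusted p = 0.0619), and ATG7, the shared E1-like enzyme, had 0.69 (SE 0.28, adjusted p = 0.0971). ATG12 had -0.00 (SE 0.17), with a 95% interval of -0.42 to 0.42. Within this group of 8, therefore, the E2-like enzyme of Atg12 was called higher in maltose wort, whereas the acceptor of Atg12 and the E2-like enzyme of Atg8 were called lower.

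None of the 5 genes of the Atg1 kinase complex, which starts autophagosome formation, was called for wort. ATG1, the kinase, had 11.33 in maltose wort with Flavourzyme and 10.78 and 10.98 on the maltose controls, against 10.00 and 10.53 in glucose wort with Flavourzyme and 10.99 and 10.22 on the glucose controls. Glucose control 1 reached the level of the maltose controls, and the difference of 0.67 (SE 0.26, adjusted p = 0.0938) did not pass. The scaffold subunits ATG31, ATG29 and ATG17 had wort differences of 0.66 (adjusted p = 0.101), -0.45 (adjusted p = 0.0572) and -0.09 (adjusted p = 0.751), so this complex showed no common direction. ATG13 had 0.27 (adjusted p = 0.279) at background level.

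The genes for the phosphatidylinositol 3-kinase complex and for membrane supply were not called for wort either. ATG14 and ATG38, both subunits of the kinase complex, had 0.62 (SE 0.44) and 0.26 (SE 0.22). ATG9, the transmembrane protein of the vesicles that seed the autophagosome, had 0.90 (SE 0.29, adjusted p = 0.0594) and ATG2 had 1.19 (SE 0.41, adjusted p = 0.0704). ATG18, which binds phosphatidylinositol 3-phosphate and works with Atg2, had -0.01 (SE 0.18, adjusted p = 0.959). For ATG9 the maltose arrays had 9.53, 9.23 and 9.48 and the glucose arrays 8.07 to 9.14, without overlap. For ATG2 the maltose arrays had 9.09, 9.16 and 8.93 and the glucose arrays 7.04 to 8.70, again without overlap but with most of the spread between the glucose controls.

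**Figure D4:**
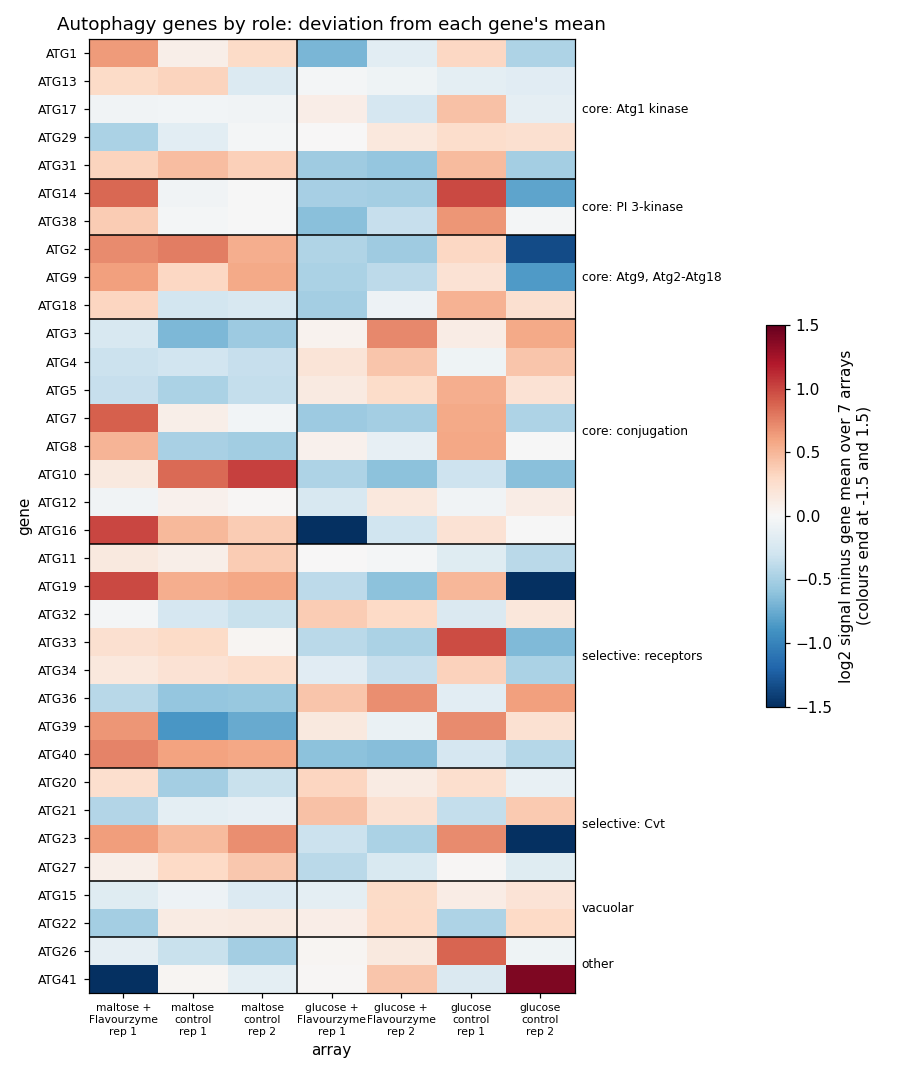
Log2 signal minus the gene's mean over the 7 arrays (colour, ending at -1.5 and 1.5) for the 34 autophagy genes by role (rows) on each array (columns, maltose to the left of the line). The conjugation genes hold both rows that are red in maltose wort (ATG10) and rows that are blue there (ATG5, ATG3), and the column of glucose control 2 is blue in genes such as ATG23, ATG19, ATG2 and ATG14.

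Among the selective factors, the receptors for the endoplasmic reticulum and for peroxisomes were called, in opposite directions. ATG40, the receptor for autophagy of the cortical and cytoplasmic endoplasmic reticulum, had 11.26 in maltose wort with Flavourzyme and 11.12 and 11.10 on the maltose controls, against 9.90 and 9.88 in glucose wort with Flavourzyme and 10.26 and 10.09 on the glucose controls. The gap between the worts was wider than the spread within either of them. Its difference of 1.15 (SE 0.14, 95% interval 0.80 to 1.51, adjusted p = 0.00922), or 2.23-fold, had the smallest adjusted p for wort among the 34 genes.

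ATG36, the receptor for pexophagy, had 10.65 in maltose wort with Flavourzyme and 10.49 and 10.50 on the maltose controls, against 11.48 and 11.76 in glucose wort with Flavourzyme and 10.91 and 11.68 on the glucose controls. Glucose control 1 was nearest to the maltose arrays, and the difference was -0.89 (SE 0.23, adjusted p = 0.0356).

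ATG39, the receptor for the nuclear envelope and perinuclear endoplasmic reticulum, had 11.06 in maltose wort with Flavourzyme and 9.52 and 9.64 on the maltose controls, against 10.55 and 10.30 in glucose wort with Flavourzyme and 11.10 and 10.62 on the glucose controls. The maltose controls were the lowest of the 7 arrays and the maltose Flavourzyme array was close to the highest, glucose control 1. Averaged over Flavourzyme the wort difference was -0.32 (SE 0.19, adjusted p = 0.216) and was not called. It averages -1.28 without Flavourzyme and 0.63 with it, against 0.93 and 1.37 for ATG40. The 2 receptors of the endoplasmic reticulum thus had wort differences of opposite sign only without Flavourzyme.

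The Cvt receptor ATG19 had 11.07 in maltose wort with Flavourzyme and 10.62 and 10.65 on the maltose controls, against 9.68 and 9.46 in glucose wort with Flavourzyme and 10.57 and 8.46 on the glucose controls. The maltose arrays were all above the glucose arrays, but glucose control 1 came close to them, and a difference of 1.31 (SE 0.51) was not called (adjusted p = 0.0924). ATG11, the scaffold that links receptors to the Atg1 kinase complex, had 10.33 in maltose wort with Flavourzyme and 10.28 and 10.56 on the maltose controls, against 10.18 and 10.15 in glucose wort with Flavourzyme and 10.01 and 9.78 on the glucose controls. Its arrays spanned less than 1 in all, and the difference was 0.34 (SE 0.16, adjusted p = 0.142).

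The mitophagy genes had small differences that were not called: -0.32 (SE 0.17, adjusted p = 0.177) for ATG32, the mitophagy receptor, and 0.34 (SE 0.41, adjusted p = 0.532) for ATG33. ATG34, a receptor related to Atg19 that carries alpha-mannosidase under starvation, had 0.36 (SE 0.24, adjusted p = 0.265). Of the Cvt and sorting factors, ATG27 and ATG23, which act in Atg9 transport, had 0.42 (SE 0.15, adjusted p = 0.0773) and 1.06 (SE 0.58, adjusted p = 0.195). The sorting nexin ATG20 had -0.23 (adjusted p = 0.311), and ATG21, a phosphoinositide-binding protein of the Cvt pathway, had -0.47 (adjusted p = 0.152).

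All 4 genes outside both sets had a lower mean in maltose wort, and none was called. ATG41, a gene needed for full induction of autophagy under nitrogen starvation, had -1.19 (SE 0.41, adjusted p = 0.0705), with 10.18 in maltose wort with Flavourzyme and 11.71 and 11.54 on the maltose controls, against 11.70 and 12.10 in glucose wort with Flavourzyme and 11.47 and 13.09 on the glucose controls. ATG26, a sterol glucosyltransferase, had -0.53 (SE 0.26, adjusted p = 0.156). ATG15, the vacuolar lipase that opens autophagic bodies, had -0.28 (adjusted p = 0.245), and ATG22, a vacuolar amino acid exporter, had -0.25 (adjusted p = 0.410).

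Without Flavourzyme, the maltose controls differed from the glucose controls in 4 of the 34 genes. ATG10 (1.41, SE 0.21, adjusted p = 0.0125) and ATG40 (0.93, SE 0.18, adjusted p = 0.0189) were higher in maltose wort, where 18.7% of all genes were called higher. ATG39 (-1.28, SE 0.24, adjusted p = 0.0173) and ATG5 (-0.79, SE 0.21, adjusted p = 0.0383) were lower, as were 9.81% of all genes. ATG3 and ATG8 followed with -0.95 (adjusted p = 0.0623) and -0.79 (adjusted p = 0.0629). Scaling over S. cerevisiae genes alone gave 2 higher and 5 lower by quantiles and by medians, ATG3 and ATG18 being added in both, against 966 higher and 820 lower over all genes by quantiles and 866 higher and 665 lower by medians. Leaving out the maltose Flavourzyme array cannot change this comparison, since that array is alone in its group and is not part of the comparison. The count fell on leaving out either maltose control or either glucose Flavourzyme array, as it did over all genes. It was 22 (64.7%) without glucose control 1 and 13 (38.2%) without glucose control 2, where 66.0% and 48.9% of all genes were called.

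With Flavourzyme, the comparison rests on the single maltose array, which was assumed to vary like the other groups. ATG40 was the 1 gene called, higher in maltose wort by 1.37 (SE 0.22, adjusted p = 0.0458), where 1.81% of all genes were called higher and 1.1% lower. ATG16 (2.04, adjusted p = 0.0921), ATG7 (1.42, adjusted p = 0.0997) and ATG41 (-1.72, adjusted p = 0.140) did not pass. This count was 0 on leaving out any 1 of the maltose control or glucose Flavourzyme arrays, as it was over all genes, and 22 (64.7%) on leaving out either glucose control, where 54.1% of all genes were called.

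**Figure D5:**
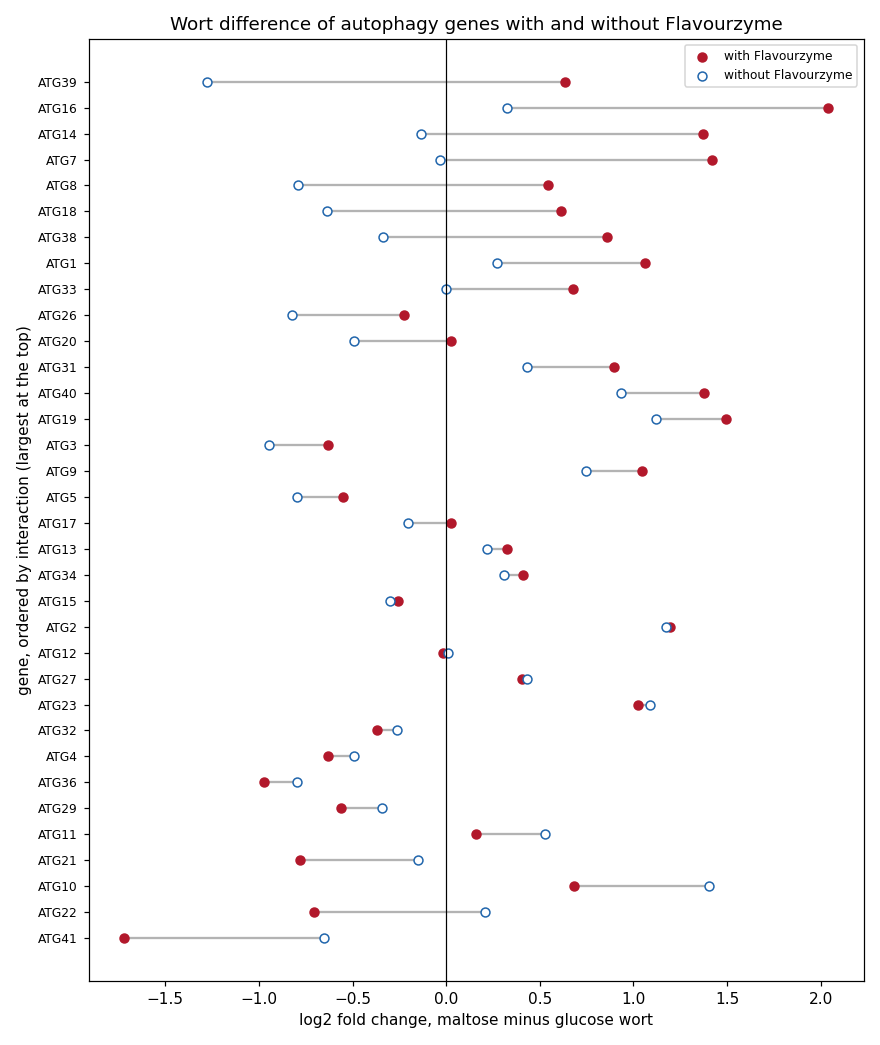
Log2 fold change of maltose minus glucose wort (horizontal axis) with Flavourzyme (filled red points) and without it (open blue points) for the 34 autophagy genes (vertical axis, ordered by the interaction). ATG40 is to the right of 0 in both, at 1.37 and 0.93, whereas ATG39, at 0.63 and -1.28, has the widest gap.

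The sign of the wort difference was the same with and without Flavourzyme in 23 of the 34 genes, in 11 of 18 core genes and in 9 of 12 selective factors, against 72.2% of all genes. The median wort difference was 0.65 with Flavourzyme and -0.08 without it for the 18 core genes, 0.41 and 0.15 for the 12 selective factors, and 0.41 and -0.08 over all 34 genes. These compare with medians over all genes of 0.24 with Flavourzyme and 0.20 without it.

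The effect of Flavourzyme, averaged over the worts, was called for 0 of 34 genes by limma (0.0355% of all genes), with 2 at an unadjusted p under 0.05, ATG39 (0.52, adjusted p = 0.278) and ATG10 (-0.43, adjusted p = 0.290). Over all 5635 genes, 901 had an unadjusted p under 0.05 by limma. The unmoderated model also called 0. The median over the 34 genes was -0.00, against -0.08 over all genes. The count was 9 (26.5%) without glucose control 1 and 9 without glucose control 2, where 25.9% and 35.7% of all genes were called.

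In glucose wort, Flavourzyme changed 0 of 34 genes by limma (0% of all genes), with 2 at an unadjusted p under 0.05, ATG18 (-0.67) and ATG38 (-0.81), both with an adjusted p of 0.701. Over all 5635 genes, 393 had an unadjusted p under 0.05 by limma. Of the 18 core genes 14 were below 0, with a median of -0.20, and the 12 selective factors had a median of 0.08. Over all genes 59.8% were below 0, with a median of -0.08. Without glucose control 1, 4 genes were called, 3 of them higher with Flavourzyme, against 377 higher and 186 lower over all genes. Without glucose control 2, most calls were lower with Flavourzyme, among the autophagy genes and among all genes. The more common direction of the calls thus depended on the control that was kept. Most of the autophagy genes called without glucose control 2 were not called without glucose control 1. ATG19, ATG2 and ATG23 were called in both fits but in opposite directions, since their glucose Flavourzyme arrays lay between the glucose controls.

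In maltose wort, 0 of 34 genes were called by limma (1.99% of all genes), with 4 at an unadjusted p under 0.05, against 1246 of all 5635 genes. ATG39 was 1.47 higher on the Flavourzyme array (SE 0.29, 95% interval 0.75 to 2.20, adjusted p = 0.0687) and ATG8 was 1.02 higher (adjusted p = 0.130). ATG20 had 0.67 (adjusted p = 0.216) and ATG10 had -0.80 (adjusted p = 0.146). For each of these 4 genes the maltose controls were at most 0.17 apart. ATG39 was called when arrays were scaled by quantiles over S. cerevisiae genes, where 7.51% of all genes were called. The median was 0.20 over the core genes, of which 12 of 18 were above 0, and 0.11 over the selective factors, against -0.04 over all genes, of which 47.2% were above 0. Leaving out either glucose control gave 8 calls (23.5%), against 38.4% of all genes.

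The interaction, by which the difference between Flavourzyme and control in maltose wort exceeded that in glucose wort, was called for 0 of 34 genes by limma (0.0355% of all genes) and for 0 by the unmoderated model. By limma 5 of the 34 genes had an unadjusted p under 0.05, against 1076 of all 5635 genes. ATG39 had 1.91 (SE 0.38, 95% interval 0.98 to 2.85, adjusted p = 0.0946) and ATG8 had 1.34 (SE 0.40, 95% interval 0.36 to 2.32, adjusted p = 0.169). ATG18 (1.25), ATG38 (1.20) and ATG7 (1.45) were the other 3. It was positive in 14 of 18 core genes, with a median of 0.31, and in 6 of 12 selective factors, with a median of 0.04, against 52.4% of all genes, with a median of 0.04. Over the 34 genes the median interaction stood at 0.20 relative to all genes. That value was 0.10 without glucose control 1, 0.41 without glucose control 2 and 0.05 with the replicate number as a block. The single maltose Flavourzyme array enters each of these values, and the count was 8 (23.5%) without glucose control 1 and 17 (50%) without glucose control 2, where 31.3% and 39.0% of all genes were called.

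Genes that work with the autophagy machinery were read against the same background, 23% of all genes called higher and 11.3% lower in maltose wort with a median of 0.26. Of the 2 autophagy genes listed under other names, VPS30 (ATG6), a subunit of the phosphatidylinositol 3-kinase, was higher in maltose wort by 0.63 (SE 0.16, adjusted p = 0.0326), with 7.73 in maltose wort with Flavourzyme and 8.40 and 8.43 on the maltose controls, against 7.57 and 7.64 in glucose wort with Flavourzyme and 7.45 and 7.09 on the glucose controls. The maltose Flavourzyme array was close to the glucose arrays, and without Flavourzyme the difference was 1.15 (SE 0.21, adjusted p = 0.0161). SNX4 (ATG24), the partner of Atg20, had 0.32 (adjusted p = 0.187). Of the 3 kinase partners, VPS15, the regulatory subunit, was higher by 1.65 (SE 0.32, adjusted p = 0.0181), whereas VPS34, the catalytic subunit, had 0.61 (adjusted p = 0.143) and VPS38, the subunit of the endosomal complex, had -0.19 (adjusted p = 0.324).

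The 14 genes for fusion with the vacuole had a median wort difference of 0.94, with 7 called higher and 1 lower. MON1, which with Ccz1 activates the vacuolar Rab protein Ypt7, was higher by 2.07 (SE 0.32, adjusted p = 0.0122) and VPS16, a tethering complex subunit, by 1.36 (SE 0.20, adjusted p = 0.0107), whereas the SNARE gene NYV1 was lower by 1.19 on the log2 scale (-1.19, SE 0.17, adjusted p = 0.0107). MON1 had 9.79 in maltose wort with Flavourzyme and 8.84 and 8.77 on the maltose controls, against 7.29 and 7.05 in glucose wort with Flavourzyme and 7.90 and 6.66 on the glucose controls. The worts did not overlap.

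Of the 8 genes for TRAPPIII and vesicle tethering, 3 were called higher and 1 lower. TRAPPIII is the complex that activates the Rab protein Ypt1, whose gene is also among the 8, at the forming autophagosome. TRS85, its defining subunit, was higher in maltose wort by 1.10 (SE 0.14, adjusted p = 0.00974) and BET3 by 1.21 (SE 0.21, adjusted p = 0.0147). TRS31, a subunit of all TRAPP complexes, had 12.05 in maltose wort with Flavourzyme and 9.20 and 9.13 on the maltose controls, against 9.42 and 9.89 in glucose wort with Flavourzyme and 11.26 and 10.38 on the glucose controls. It was higher with Flavourzyme in maltose wort by 2.89 (SE 0.42, adjusted p = 0.0441), and the interaction of 4.05 was not called (adjusted p = 0.0614).

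Of the 12 genes for TORC1 and its nutrient inputs, 1 was called higher and 1 lower in maltose wort. TCO89, a TORC1 subunit, was lower (-0.82, SE 0.14, adjusted p = 0.0149) and GTR2, a GTPase of the branch that signals amino acids to TORC1, was higher (0.53, SE 0.16, adjusted p = 0.0465). MEH1 and GTR1, of the same branch, had 0.34 (adjusted p = 0.210) and 0.28 (adjusted p = 0.205). Of the 9 transcription regulators, RIM15, a kinase that relieves repression of ATG genes, was higher (0.95, SE 0.14, adjusted p = 0.0116), and GLN3, an activator under nitrogen limitation (-0.79, SE 0.17, adjusted p = 0.0211), and RPH1, a repressor of ATG genes (-0.65, SE 0.16, adjusted p = 0.0299), were lower. For RPH1 this rested on the single maltose Flavourzyme array, at 10.11, since the maltose controls had 11.12 and 11.25, against 11.14 and 11.47 in glucose wort with Flavourzyme and 11.26 and 11.31 on the glucose controls. The 2 regulators called lower were thus an activator and a repressor.

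Among the 4 cargo genes and partners none was called for wort, with 0.87 (adjusted p = 0.0737) for VAC8, a vacuolar membrane protein of the Cvt pathway, 0.33 (adjusted p = 0.139) for the aminopeptidase gene APE4 and 1.04 (adjusted p = 0.189) for APE1, the main Cvt cargo. Of the 6 vacuolar hydrolases, 2 were higher and 2 lower in maltose wort. APE3, an aminopeptidase, was higher (1.06, SE 0.25, adjusted p = 0.0276), and CPS1, a carboxypeptidase (-1.02, SE 0.27, adjusted p = 0.0356), and PRB1, proteinase B (-0.64, SE 0.15, adjusted p = 0.0262), were lower. CPS1 had 11.99 in maltose wort with Flavourzyme and 10.36 and 10.41 on the maltose controls, against 12.06 and 11.92 in glucose wort with Flavourzyme and 12.92 and 11.93 on the glucose controls, so that the maltose controls stood apart from the other 5 arrays, as they did for ATG39 and ATG8.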

How the data were processed

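Total RNA from 7 stationary phase samples was hybridised by the authors to Affymetrix Yeast Genome 2.0 arrays. The arrays were read with Affymetrix Microarray Suite, and the deposited log2 values were made by the authors with RMA in the R package affy, which normalizes quantiles over all probe sets, those of S. pombe included; the versions of R and affy were not stated in the sources. Values were taken as deposited, and no raw image was processed.

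Of 10928 probe sets, 5685 named 1 S. cerevisiae gene in the platform annotation. Where a gene had several (48 genes, none of them a member), that with the highest mean was kept, which left 5635 genes. Because 1 group had a single array, all groups were fitted together as 4 means in limma 3.58.1 (R 4.3.3) with empirical Bayes moderation (3 residual and 2.78 prior degrees of freedom), and 7 contrasts were taken from that fit. Tests were two-sided, and p-values were adjusted by Benjamini-Hochberg over all genes, with a call at an adjusted p under 0.05. The wort effect is maltose minus glucose, and the Flavourzyme effect is Flavourzyme minus control. The number of arrays limits the precision. The test was tried on simulated data first.

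Members and gene lists were chosen with earlier results of these data known. Values per array were given for members called in any comparison and for ATG8, ATG1, ATG11 and ATG19, and up to 3 genes with the smallest p were named from each list; other values, such as those of ATG9, ATG2, ATG41 and GTR2, were added after they were seen. CIS1 of the annotation is another gene than ATG31 and was left out, and LAP4 was matched as APE1. No sequences were used here. Alternatives changed the scaling, a filter on dim genes, the moderation, the fold threshold, the choice of probe set, the replicate number as a block and the arrays included.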

Additional observations from a re-analysis of the deposited data

How the results depend on the processing

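The wort effect was called for 5 of 34 autophagy genes, against 0 with the added log2 fold threshold of the methods (1.30), 2 by ANOVA without moderation (ATG40 and ATG10) and 2 with the replicate number as a block. Quantile scaling over S. cerevisiae genes called 7, and 7 for wort without Flavourzyme (4 with the deposited values) and 1 for Flavourzyme in maltose wort. Over all genes it called 33.1%, 31.7% and 7.51% in these 3 comparisons. Median centring called 7 for wort without Flavourzyme (27.2% of all genes) and 0 for wort with Flavourzyme (1.61% of all genes, and 1 member with the deposited values). The count for wort with Flavourzyme was also 0 with the replicate block, as it was over all genes. Leaving out 1 array at a time gave 0 to 25 calls for wort, 0 to 9 for Flavourzyme, 0 to 17 for the interaction, 0 to 18 for Flavourzyme in glucose wort, 0 to 8 for Flavourzyme in maltose wort, and 0 to 22 for wort without and wort with Flavourzyme. Over all genes the wort effect was called for 0 to 4028 genes in those fits and for 583 by ANOVA, against 1931. None of the called genes turned its direction under any alternative run: the wort difference ran over 0.93 to 1.20 for ATG40, 0.63 to 1.41 for ATG10, -0.83 to -0.59 for ATG5, -1.08 to -0.69 for ATG36 and -0.96 to -0.62 for ATG3. The cause of these changes in counts was not tested, beyond there being fewer arrays in the fits that leave an array out. Without the maltose Flavourzyme array the wort effect was taken between the controls alone, and the Flavourzyme effect in glucose wort alone. The range ends of 0.93 for ATG40 and 1.41 for ATG10 come from that comparison of the controls. The other comparisons that need the array gave no value.

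Samples that share a replicate number share nothing else by their labels, and their deviations correlated at 0.0074 between the controls of the 2 worts, 0.18 between the glucose groups and 0.10 between the maltose controls and glucose wort with Flavourzyme, so the numbers were not taken to pair the samples. A pair of arrays in most groups and 1 in the last limit what can be called, and ATG13, ATG16 and ATG23 are limited further by signals near background.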
